A study of Populus tremula x Populus tremuloides with 12 samples.

Results

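The genes described here are 129 of the 33975 genes listed for leaves of hybrid poplar (Populus tremula x Populus tremuloides, clone INRA 353-38) that stood higher in MYB165-overexpressing plants (OE) than in wild type (WT) in the greenhouse and close to WT after exposure to sunlight. They were chosen by their measured values in these same 12 libraries. L is log2(CPM + 0.5), where CPM is the read count per 1000000 gene counts of the library, after scaling by the trimmed mean of M values (TMM). A member averaged at least 2 CPM in 1 or more of the 4 groups, which 20321 genes did. Its mean L was at least 1 higher in OE than in WT in the greenhouse, with all 3 OE libraries above all 3 WT libraries, and in sunlight the group means of L differed by less than 0.4. These differences are therefore a property of the choice and not a finding.

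All plants spent 1 month in a mist chamber after tissue culture and 2 months in a greenhouse, and their leaves 7 to 10 on the leaf plastochron index were sampled. WT greenhouse and OE greenhouse plants stayed inside, while WT sunlight and OE sunlight plants were moved outdoors for 1 week, so that sunlight and the outdoor site cannot be told apart. Whether plants kept inside were harvested at the same age is not stated. Each group held 3 libraries from 3 plants, named below by the number in the sample title: 1, 3 and 5 in the greenhouse and 2, 4 and 6 in sunlight. OE plants carried MYB165 in the binary vector pMDC32, whose 35S promoter drives a transgene in most tissues, and WT plants are not described as carrying an empty vector. No source used here says how many transformed lines the OE plants represent, so p-values measure the spread between these plants and not between lines. In whole leaves, fewer cells of a type and less RNA per cell cannot be told apart.

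MYB165 is a MYB transcription factor of the repressor type, studied in poplar for lowering genes of the phenylpropanoid and flavonoid pathways. These pathways make condensed tannins, anthocyanins, flavonols and phenolic glycosides, and strong light raises many of them in poplar leaves. The files give gene IDs without names, so the roles of the 129 genes, the leaf markers and MYB165 itself were not analysed here, and no sequence is shown.

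The 12 libraries carried between 5870132 and 27711999 gene counts. The lowest correlations between replicates were in OE greenhouse, where each library had one of 0.947 or 0.948, while every other group's lowest was 0.967 or more. The chi-square for each degree of freedom was 64.19 and 70.34 for OE greenhouse 3 against 1 and 5, and 21.28 between 1 and 5. It was also high, at 55.19, for WT greenhouse 1 against 5 and, at 44.38, for WT sunlight 4 against 6. Reads outside genes made up 32.2% of WT greenhouse 5 and 16.4% of WT greenhouse 3, where no other library exceeded 13.1%. Results are given with and without OE greenhouse 3.

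The rule itself placed all 3 OE greenhouse libraries above WT greenhouse for each of the 129 members, and the shift was largest in 1 of them. The median member stood at 2.54, 2.3 and 2.16 CPM in WT greenhouse 1, 3 and 5, and at 5.6, 11.6 and 5.26 CPM in OE greenhouse 1, 3 and 5. In sunlight it stood at 2.23, 2.85 and 3.09 CPM in WT 2, 4 and 6 and at 3.2, 3.27 and 3.04 CPM in OE 2, 4 and 6. OE greenhouse 3 was thus the highest of the 12, OE greenhouse 1 and 5 lay close together below it, and the other 9 libraries lay lower still. Summed over the members, the greenhouse means were 1035 ± 18.9 CPM for WT and 2929 ± 1300 CPM for OE (SD, n = 3 libraries). The corresponding sunlight means were 1219 ± 321 and 1357 ± 138 CPM. With OE greenhouse 3 left out, the sum for OE in the greenhouse averaged 2189 CPM.

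**Figure D1:**
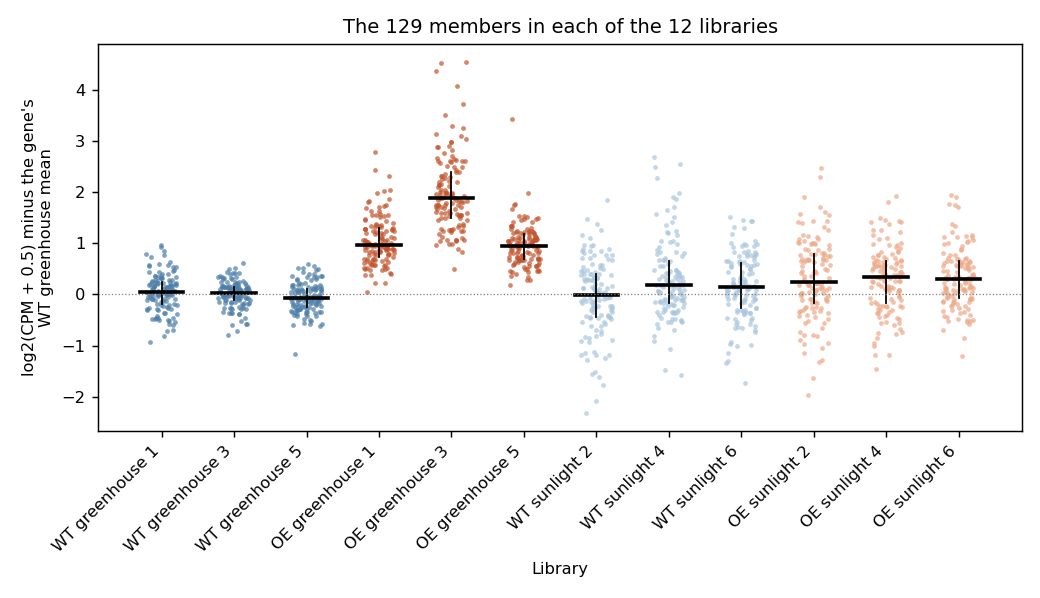
Values of the 129 members in each of the 12 libraries, as log2(CPM + 0.5) minus the mean of the same gene in WT greenhouse (y axis). Each point is 1 gene, the thick bar is the median and the thin line runs from the lower to the upper quartile; the medians are 0.97, 1.89 and 0.95 in OE greenhouse 1, 3 and 5 and between 0.25 and 0.34 in OE sunlight.

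OE greenhouse 3 was the highest of its group for 106 of the 129 members (82.2%), against 37.7% of the 22959 genes with enough counts to be tested. The rule asks for high OE greenhouse values, so a library that runs high is favoured by the choice, and nothing further is read from this share. On the L scale OE greenhouse 3 lay a median of 0.95 above the mean of OE greenhouse 1 and 5 for the members, with a lowest value of -1.26 and a highest of 4.01, and -0.04 from it over all tested genes. For 60 members the gap was 1 or more. The SD of L within OE greenhouse had a median of 0.61 over the members and 0.26 over all tested genes, while in OE sunlight the medians were 0.29 and 0.20.

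Among the members, the OE minus WT difference in greenhouse L ran from 1.002 to 2.96 with a median of 1.27. Without OE greenhouse 3 the same difference ran from 0.34 to 2.40 with a median of 1. Then 65 of the 129 members still reached 1, and 125 reached 0.5. In WT greenhouse the median of the members' mean CPM was 2.48, and 25 members averaged under 1 CPM. In OE greenhouse the median of the means was 7.94 CPM, 49 members averaged at least 10 CPM and 7 at least 100 CPM. In sunlight the difference in L ran from -0.24 to 0.40 with a median of 0.20. The OE mean was above the WT mean there for 105 of the 129 members (81.4%, against 48% of all tested genes). In 13 members all OE sunlight libraries were above all WT sunlight libraries (10.1%), a share near the 7.89% of all tested genes. The reverse held in 0 members, against 8.05%.

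**Figure D2:**
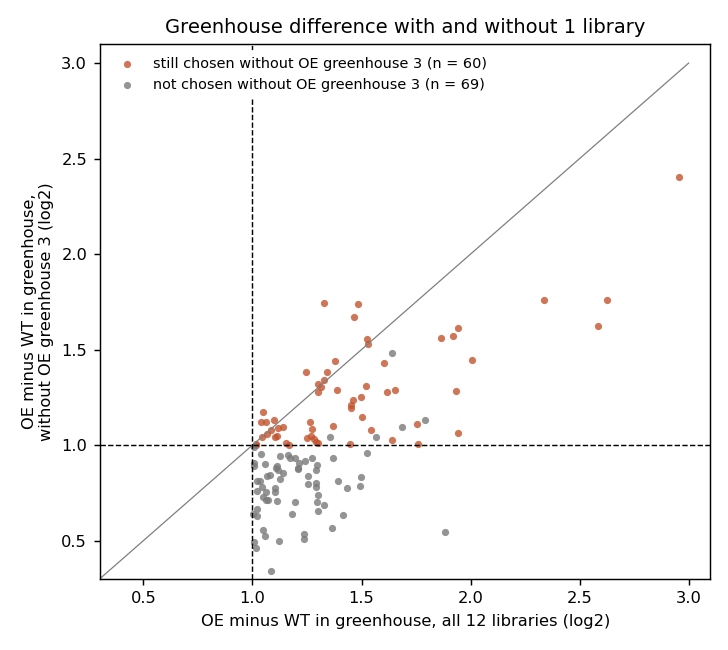
OE minus WT difference in greenhouse mean log2(CPM + 0.5) for each member, with all 12 libraries (x axis) and without OE greenhouse 3 (y axis). Dashed lines mark the limit of 1 and the solid line equal values; 60 members are still chosen without that library and 69 are not.

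The member with the largest greenhouse difference was Potra002037g15926. Its greenhouse values were 0.484, 1.03 and 1.37 CPM in WT 1, 3 and 5, and 9.3, 23.4 and 5.12 CPM in OE 1, 3 and 5. In sunlight it stood at 0.809, 0.648 and 2.24 CPM in WT and at 1.76, 1.2 and 1.24 CPM in OE. All 3 OE greenhouse libraries were therefore above each of the other 9, and the difference in L, 2.96, was 2.40 without OE greenhouse 3. Potra002423g18416 had the same shape, at 1.33, 1.15 and 0.862 CPM in WT greenhouse and at 5.22, 17.7 and 4.59 CPM in OE greenhouse. Its sunlight values were 0.202, 1.43 and 0.296 CPM in WT and 0.32, 0.327 and 0.69 CPM in OE, and only WT sunlight 4 reached the level of WT greenhouse.

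Potra000729g05731 and Potra003638g22244 came next after Potra002037g15926 in the greenhouse difference, at 2.62 and 2.58 on the L scale, and both rested heavily on OE greenhouse 3. Potra000729g05731 stood at 4.47, 2.07 and 1.37 CPM in WT greenhouse and at 9.18, 58.8 and 9.23 CPM in OE greenhouse. Without the library at 58.8 CPM its difference was 1.76. In sunlight it stood at 4.72, 15.6 and 7.44 CPM in WT and 8.01, 6.21 and 6.97 CPM in OE, so that WT sunlight 4 exceeded OE greenhouse 1 and 5. Potra003638g22244 stood at 2.42, 3.44 and 3.09 CPM in WT greenhouse and at 13.5, 79.2 and 7.51 CPM in OE greenhouse, and its difference was 1.62 without OE greenhouse 3. Its sunlight values of 1.08, 6.09 and 1.27 CPM in WT and 2.4, 2.4 and 3.35 CPM in OE overlapped.

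The other 4 of the 8 largest differences had mean L between 1.935 and 2.006 higher in OE greenhouse. For Potra002517g18994 the OE greenhouse values were 3.27, 10.2 and 2.34 CPM, against 0.363, 0.689 and 1.22 CPM in WT greenhouse. For Potra001870g14949 they were 18.4, 107 and 14.4 CPM, against 11.2, 7.23 and 5.32 CPM. Here OE greenhouse 3 stood far above its group, and without it the difference of 1.94 was 1.06. Potra000938g07669 was more even, at 12.9, 23.1 and 9.76 CPM in OE greenhouse against 7.01, 3.9 and 1.22 CPM in WT greenhouse. Potra003126g20808 stood at 2.45, 11 and 2.44 CPM against 1.09, 0.804 and 0.359 CPM.

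The members whose difference depended most on OE greenhouse 3 were Potra002109g16388, Potra003638g22244, Potra001870g14949 and Potra000729g05731. Potra002109g16388 had 140 counts in OE greenhouse 3, 10 in OE greenhouse 5, 2 in OE greenhouse 1 and 1 in all of WT greenhouse. Its OE greenhouse mean of 4.23 CPM was 0.301 CPM without OE greenhouse 3, which is below the level limit of 2 CPM. Potra003744g22665, named after its values were seen, was the reverse case, with 126 counts in OE greenhouse 5 and 4 or fewer in each other greenhouse library. Each of these 2 genes reached the level limit through a single library. They were the only members not tested, because fewer than 3 libraries reached 0.69 CPM, and 127 were tested.

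The members with the highest CPM in OE greenhouse were Potra000056g00224, Potra198246g29297, Potra001748g14249, Potra000661g05097, Potra001938g15347 and Potra001926g15273. CPM is not divided by transcript length, so their order is one of read counts. Potra198246g29297 held 207, 275 and 143 CPM in OE greenhouse, a mean of 208 ± 65.9 CPM, where the WT mean was 71.3 ± 17.6 CPM (SD, n = 3 libraries). Its sunlight means were 49.1 ± 20.2 CPM for WT and 55.1 ± 12.5 CPM for OE. The lowest OE greenhouse library thus exceeded every library of the other groups.

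Potra000056g00224 averaged 251 ± 199 CPM in OE greenhouse (SD, n = 3), where OE greenhouse 3 held 480 CPM and the others 124 and 148 CPM. Its WT greenhouse values of 90.6, 85.1 and 76 CPM overlapped with both sunlight groups. Potra001748g14249 had 372 CPM in OE greenhouse 3 and 134 and 96 CPM in OE greenhouse 1 and 5, against 55.3 to 77.5 CPM in WT greenhouse. Potra000661g05097 was high in other libraries, with 260 CPM in OE greenhouse 1, 153 in OE greenhouse 3 and 94.2 in OE greenhouse 5, and with 231 CPM in WT sunlight 4. Its other WT sunlight libraries held 57.2 and 40.4 CPM, so near equality in sunlight there was an average over a wide spread. Potra001938g15347 stood at 137, 175 and 97 CPM in OE greenhouse against 51.9 to 58.9 CPM in WT greenhouse, and Potra001926g15273 at 132, 111 and 86.2 CPM against 48.1 to 58 CPM. In both genes sunlight libraries exceeded OE greenhouse 5. Potra001938g15347 had 99.3 CPM in OE sunlight 2, and Potra001926g15273 had 103 CPM in OE sunlight 2 and 105 CPM in WT sunlight 4.

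**Figure D3:**
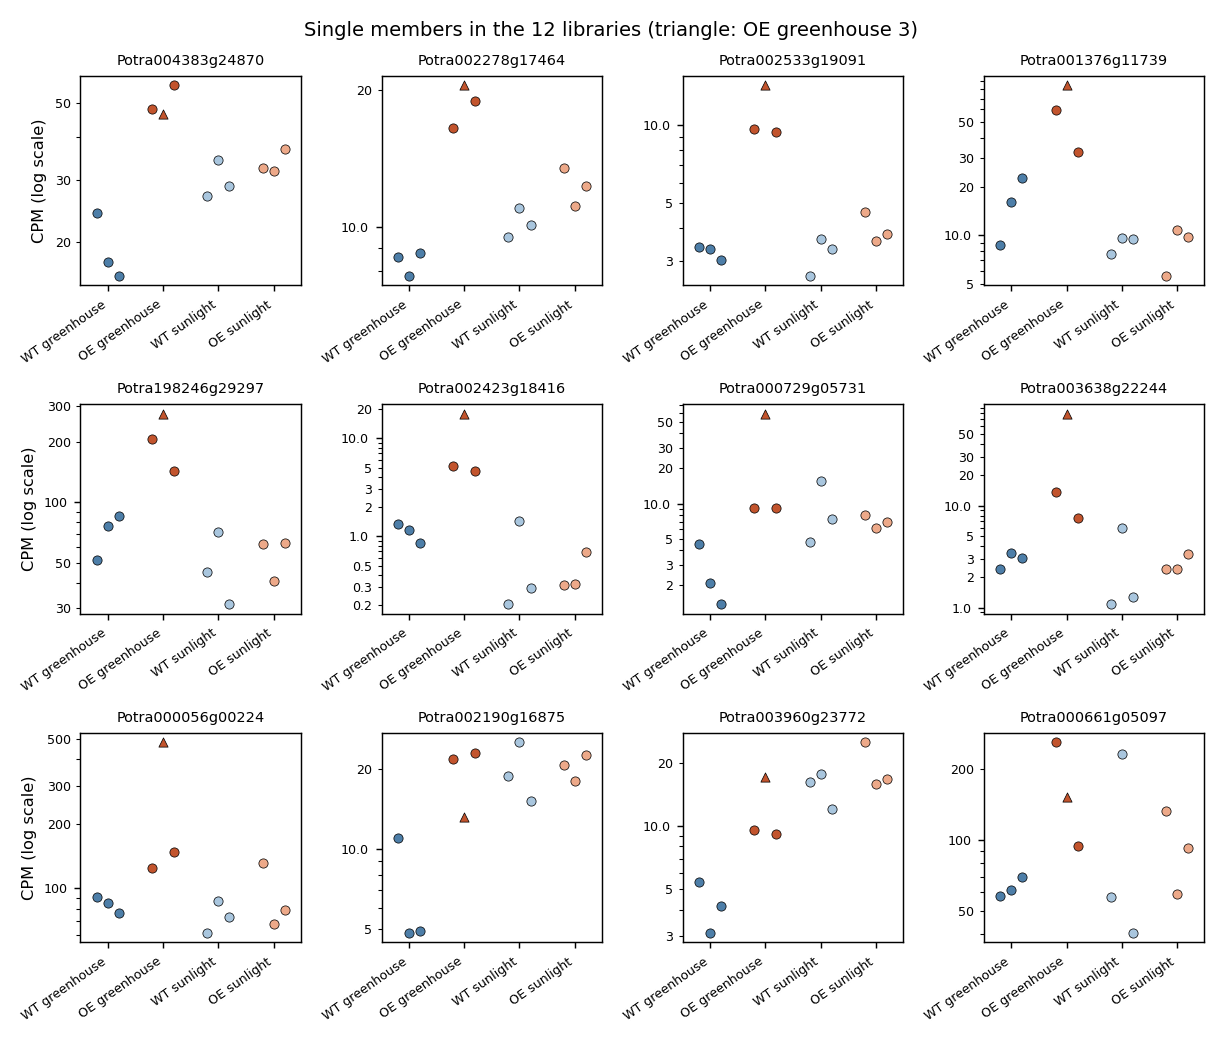
CPM (log scale) of 12 members in the 12 libraries, grouped as WT greenhouse, OE greenhouse, WT sunlight and OE sunlight; each point is 1 library and the triangle is OE greenhouse 3. In Potra000056g00224 the triangle stands at 480 CPM and the other OE greenhouse libraries at 124 and 148 CPM, whereas in Potra004383g24870 the 3 lie between 46.4 and 56 CPM.

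How the groups came to lie close together in sunlight was described next, from the change between greenhouse and sunlight within each genotype. These changes are not the contrasts of the rule, but they use its libraries: a gene chosen for high OE and low WT greenhouse values tends to lie lower in OE sunlight and higher in WT sunlight. For 102 of the 129 members the OE mean lay further below its greenhouse value than the WT mean lay above its own (79.1%, against 49.3% of all tested genes). Among the 143 genes raised by the same limits in both conditions the share was 81.8%, so it is not particular to the members. The OE change in L had a median of -0.94, with quartiles of -1.47 and -0.57, and the WT change a median of 0.13, with quartiles of -0.26 and 0.49. Over all tested genes both medians were within 0.02 of 0. Without OE greenhouse 3 the median OE change of the members was -0.61.

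In 78 members all 3 OE sunlight libraries were below all 3 OE greenhouse libraries (60.5%, against 14% of all tested genes), and in 25 all WT sunlight libraries were above all WT greenhouse libraries (19.4%, against 13.8%). Both held in 5 members (3.88%, against 0.187%). In 65 members OE was lower without overlap while WT overlapped (50.4%, against 9.24%), and in 19 WT was higher without overlap while OE overlapped (14.7%, against 7.86%). Both genotypes were lower without overlap in 8 members (6.2%), a share near the 4.54% of all tested genes. In 31 members both genotypes overlapped between conditions (24%, against 57.1%). Among the 143 genes raised by the same limits in greenhouse and sunlight, OE was lower without overlap in 37.8%, and in 27.3% this held while WT overlapped. WT was higher without overlap in 6.99% of those 143 genes.

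By limma, p-values were adjusted by the Benjamini-Hochberg method over all 22959 genes. Of the 127 tested members 23 fell from OE greenhouse to OE sunlight, with 1.93% of all tested genes called in that direction. No member was called as rising (2 had an unadjusted p under 0.05), where 693 of all tested genes were called higher. The rule asked for high OE greenhouse values in these same libraries, which pushes the count of falls upward. The p-values for this fall, here and for single members below, are therefore not independent of the choice. The log2 fold changes of the 23 ran from -3.70 to -0.61 with a median of -1.70. Without OE greenhouse 3, 23 of 124 tested members fell, against 1.51% of all genes, and 20 were called lower both with and without that library. Another 2 rose, a share near that of all genes, of which 416 of 22902 were called higher. Leaving out OE sunlight 2, 4 or 6 gave 14, 8 or 2 such members, while the calls over all genes in either direction went from 1135 to 628, 178 and 116. There were 0 when just the 6 OE libraries entered, where 47 of all genes were called and 70 members had an unadjusted p under 0.05.

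The 5 members with the largest decrease in mean L in OE were Potra002423g18416, Potra000938g07669, Potra003638g22244, Potra001376g11739 and Potra000586g04387. Potra001376g11739 stood at 59.3, 84.5 and 32.5 CPM in OE greenhouse and at 5.6, 10.8 and 9.7 CPM in OE sunlight. It fell by 2.63 ± 0.40 (SE) on the log2 scale, with limma adjusted p = 0.00766, and p was 0.0156 without OE greenhouse 3. In WT it stood at 8.71, 16 and 22.5 CPM in the greenhouse and 7.62, 9.66 and 9.43 CPM in sunlight, so both sunlight groups lay at the lower end of WT greenhouse. Potra002423g18416 fell by 3.70 ± 0.87 (SE), with limma adjusted p = 0.0355.

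Potra000586g04387 and Potra000938g07669 did not pass, with limma adjusted p of 0.0563 and 0.0679 for fitted log2 changes of -3.02 and -2.86. Potra000586g04387 stood at 12.3, 14.2 and 3.35 CPM in OE greenhouse and 1.6, 0.545 and 0.967 CPM in OE sunlight. Potra000938g07669 had 0.48, 1.2 and 3.35 CPM in OE sunlight. For Potra003638g22244 the fitted log2 change was -2.70 with limma adjusted p = 0.113. In each of these 3 genes every OE sunlight library lay below every OE greenhouse library.

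**Figure D4:**
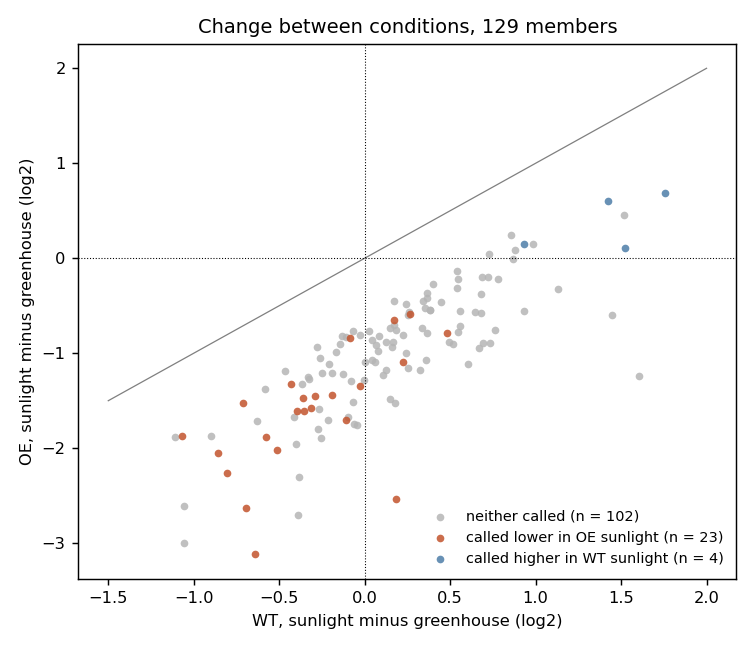
Sunlight minus greenhouse difference in mean log2(CPM + 0.5) for each member in WT (x axis) and OE (y axis); the solid line marks equal change. Members called by limma as lower in OE sunlight (n = 23) and as higher in WT sunlight (n = 4) are coloured, and every point lies below the line because the rule asks for it.

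In a small set of members WT was higher in sunlight than in the greenhouse, and OE was not lower by the mean. The OE mean was lower in sunlight than in the greenhouse for 120 of the 129 members (93%, against 49.8% of all tested genes). It was higher in 9 members, with a median L change of 0.15 in OE and 0.98 in WT. The rule makes the WT change exceed the OE change in every member, so the WT rise of these 9 is not a separate result. In WT, 4 members passed the test as higher in sunlight, against 0.645% of all tested genes. Without OE greenhouse 3 there were 8 of 124, against 2.1%, and 1 that was lower, where 537 of 22902 genes were called lower. Low WT greenhouse values were part of the choice, which pushes the counts of higher members upward, so their p-values are not independent of it. The 4 were Potra003960g23772, Potra002190g16875, Potra001184g10261 and Potra004037g24358, of which the last 2 were named after their values were seen. None of the 4 was called without WT greenhouse 3, WT greenhouse 5 or WT sunlight 2, when 14, 13 and 15 members, respectively, had an unadjusted p under 0.05. In these fits 35, 37 and 51 of all genes were called in either direction, against 320 with all libraries, so that 0 members is near the background. The count was 2, 1, 2, 2 and 1 without WT greenhouse 1, WT sunlight 4, OE sunlight 2, OE sunlight 4 and OE sunlight 6, with 125 to 202 calls over all genes.

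Potra003960g23772 stood at 5.44, 3.1 and 4.17 CPM for WT in the greenhouse and at 9.62, 17.2 and 9.14 CPM for OE. In sunlight it held 16.3, 17.8 and 12.1 CPM for WT and 25.1, 15.8 and 16.8 CPM for OE, so that every sunlight library lay above WT greenhouse. It rose in WT by 1.86 ± 0.33 (SE) on the log2 scale, with limma adjusted p = 0.0288. Potra002190g16875 stood at 11, 4.82 and 4.89 CPM in WT greenhouse and at 21.8, 13.2 and 23 CPM in OE greenhouse. Both sunlight groups then lay at the OE greenhouse level, with 18.8, 25.3 and 15.2 CPM in WT and 20.7, 18 and 22.7 CPM in OE. It rose in WT by 1.64 ± 0.33 (SE), with limma adjusted p = 0.041, and its OE greenhouse 3 value was the lowest of its group.

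Potra001184g10261 went from between 3.1 and 3.95 CPM in WT greenhouse to between 9.04 and 12.4 CPM in WT sunlight, a log2 fold change of 1.501 ± 0.276 (SE) with limma adjusted p = 0.0297. Its OE values were 7.29, 11.4 and 6.22 CPM in the greenhouse and 14.3, 10.3 and 13.1 CPM in sunlight. Potra004037g24358 went from between 22.2 and 29.7 CPM to between 43.6 and 53.3 CPM in WT, a log2 fold change of 0.95 ± 0.19 (SE) with limma adjusted p = 0.0372. Its OE values were 43.9, 74.4 and 59.7 CPM in the greenhouse and 70.3, 66.7 and 57.3 CPM in sunlight. Every OE sunlight library of this gene was thus still above every WT sunlight library. The other 3 of the 5 members with the largest WT difference, Potra000729g05731, Potra002517g18994 and Potra000424g02222, did not pass, with limma adjusted p between 0.36 and 0.373. In each of them WT sunlight 4 was the highest of its group, at 15.6, 5.38 and 8.17 CPM. Over all members WT sunlight 4 was the highest of its group for 64 of 129 (49.6%, against 36.6% of all tested genes).

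A difference between conditions needs a test of the difference itself. When the OE effect in sunlight was compared with that in the greenhouse by limma, no member passed, and none of all tested genes did (0%). The smallest limma adjusted p among members was 0.716. An unadjusted p under 0.05 was reached by 53 of the 127, against 6% of all tested genes. All 53 had the smaller effect in sunlight, which the rule fixes. A limma-trend fit also called 0, with 56 at an unadjusted p under 0.05. The words greenhouse only are thus carried by the limits of the choice and not by a test. The members with the smallest unadjusted p for this difference are described by their values alone. Potra004383g24870 had greenhouse means of 19.2 ± 4.36 CPM for WT and 50.1 ± 5.15 CPM for OE, and sunlight means of 30 ± 3.75 and 33.8 ± 2.69 CPM (SD, n = 3 libraries). Potra002278g17464 had means of 8.39 ± 0.51, 18.7 ± 2.05, 10.2 ± 0.728 and 12.3 ± 1.17 CPM in the same order. For Potra002533g19091 they were 3.24 ± 0.198, 11.1 ± 2.68, 3.2 ± 0.514 and 4.01 ± 0.557 CPM. In all 3 genes the OE greenhouse libraries stood above the other 9, and each OE sunlight mean stood above the WT sunlight mean.

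For OE against WT within a condition, the contrasts that chose the members, 40 of 127 tested members were called higher in the greenhouse, against 2.24% of all tested genes, and nothing is read from that count. Without OE greenhouse 3 it was 36 of 124, against 2.07%, and 28 members were called both ways. In sunlight no member was called, against 1.24% of all tested genes in either direction, and a limma-trend fit also called 0. An unadjusted p under 0.05 was reached by 3 members, against 8.06% of all tested genes, where the rule keeps the difference small. The greenhouse count was 20, 15 and 9 without WT greenhouse 1, 3 and 5, where calls over all genes in either direction went from 1093 to 702, 462 and 277. It was 24 without OE sunlight 6, which entered through the common estimate of spread, and 11 without both OE greenhouse 3 and WT greenhouse 5, with 693 and 323 calls over all genes.

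Because the members were chosen on all 12 libraries, the rule was also applied without 1 library at a time and the omitted library was then looked at. Without OE greenhouse 3 the rule chose 85 genes, of which 60 were members and 25 were not. In OE greenhouse 3, which had no part in that choice, 68 of the 85 stood above all 3 WT greenhouse libraries (80%, against 35.4% of all genes at the level limit). The median OE minus WT difference of the 85 in that library alone was 1.27 on the L scale, against -0.05 over all genes. Without OE greenhouse 1 or 5 the rule chose 253 and 266 genes, of which 73.9% and 76.3% had the omitted library above all WT greenhouse libraries, with medians of 0.60 and 0.59. The WT libraries entered each choice, so these shares are not fully independent of it.

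The same was done for the near equality in sunlight. Without WT sunlight 2, 4 or 6 the rule chose 131, 180 and 127 genes, and the median OE minus WT difference against the omitted WT library alone was 0.41, 0.56 and 0.29 on the L scale. Without OE sunlight 2, 4 or 6 it chose 148, 144 and 126 genes, with medians of 0.34, 0.36 and 0.24 in the omitted OE library. Over all genes at the level limit these medians lay between -0.01 and 0.01. In each of the 6 omissions OE was thus above WT by the median. The value of 0.56 for WT sunlight 4 was close to the 0.59 for omitted OE greenhouse 5, and each omission chose another set of genes. Between 28.9% (WT sunlight 4) and 67.5% (OE sunlight 6) of the genes lay within 0.4 in the omitted library, against 73.5% and 87.3% of all genes at the level limit.

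**Figure D5:**
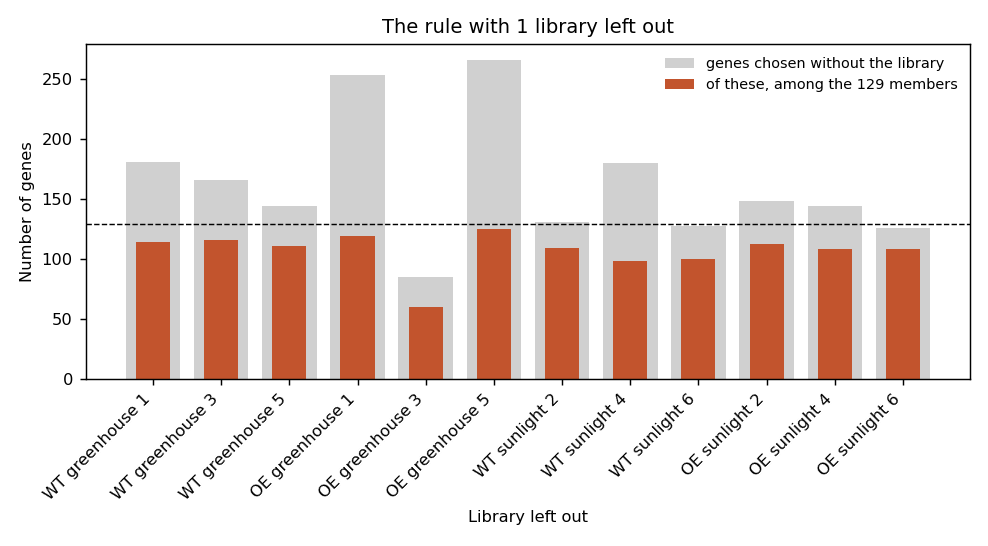
Number of genes chosen by the rule when the named library is left out (grey bars) and how many of them are among the 129 members (orange bars); the dashed line marks 129. Leaving out OE greenhouse 3 gives 85 genes, 60 of them members, and leaving out OE greenhouse 5 gives 266, of which 125 are members.

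The members still chosen without OE greenhouse 3 and those lost are described side by side, as the omission itself sorted them. The 60 kept members had a median OE greenhouse difference of 1.37 in L, or 1.18 without that library, and OE greenhouse 3 was the highest of its group in 38 of them. For the 69 lost members the medians were 1.17 and 0.81, and OE greenhouse 3 was the highest in 68. Of the lost members 64 were then under the greenhouse limit of 1 and 15 under the level limit. The median OE change in sunlight was -1.08 in the kept and -0.91 in the lost members, and the median level in OE greenhouse 10.5 and 6.01 CPM. What sets OE greenhouse 3 apart was not tested.

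In all, 16 members were chosen whichever of the 12 libraries was left out, and 85 were chosen in at least 10 of the 12 omissions. Of the genes described above, Potra001376g11739, Potra002190g16875, Potra002278g17464, Potra002533g19091, Potra003126g20808 and Potra004383g24870 were among the 16. Potra001115g09795, another of them and named after its values were seen, shows the even form: 1.09, 1.03 and 1.22 CPM for WT in the greenhouse, against 3.39, 3.63 and 3.4 CPM for OE. In sunlight it stood at 0.607, 0.648 and 0.634 CPM in WT and at 0.16, 0.654 and 0.725 CPM in OE, where the first value was a single count. It fell in OE by 2.57 ± 0.31 (SE) on the log2 scale, with limma adjusted p = 0.00423, the smallest among members for that comparison.

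At the limits of the rule, Potra000828g06628 was just inside the greenhouse limit with a difference of 1.0016 in L and Potra000950g07775 just outside with 0.9966. Potra001748g14249 was just inside the sunlight limit at 0.3994 and Potra002599g19526 just outside at 0.4023. Potra002765g19933 was just inside the level limit with a highest group mean of 2.029 CPM and Potra003834g23044 just outside with 1.9724 CPM. Of 570 genes that met the greenhouse conditions at any sunlight difference, 143 were raised by the same limits in sunlight as well. OE greenhouse 3 was the highest of its group in 64.3% of those 143 genes, and their OE greenhouse difference without it had a median of 1.67. The members' IDs carried 127 different leading parts, and the only ones in common were those of Potra001042g08795 with Potra001042g08820 and of Potra001056g09040 with Potra001056g09046. Whether such genes share reads was not tested.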

How the data were processed

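Raw read counts per gene were deposited by the authors, 1 library a file, unnormalized as the values show (whole numbers, unequal totals). TopHat2 2.1.1, HTSeq 0.6.1 and Cufflinks appear in the submitters' processing notes without roles. No source used here gives the build, annotation or strand setting, so overlapping and near-identical genes are uncertain. The deposited files are tab-separated under a comma-table name, so the unit could not be read automatically and was declared as other; edgeR and DESeq2 were therefore not run. The 5 summary entries stayed out of library sizes; 6.85% to 32.2% of reads were outside genes.

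Counts were scaled by TMM (trims of 30% and 5%). Genes at 0.69 CPM (10 counts in a library of median size) or above in 3 libraries and 15 counts in all were tested with limma 3.58.1 in R 4.3.3 (voom weights, all 12 libraries, 1 mean per group, robust empirical Bayes, Benjamini-Hochberg over genes, threshold 0.05), and the fit was tested on simulated data. Fold changes are limma estimates. A count of 0 allows 3 counts, between 0.104 and 0.48 CPM per library, counting error only. Every replicate pair differed by more than sampling noise (chi-square of 12.04 to 70.34 for each degree of freedom). The members and lists were chosen with earlier results of these data known. Genes were named for the 8 largest greenhouse differences, the 6 highest OE greenhouse means, the 5 largest falls in OE, the 5 largest rises in WT, the 4 most dependent on OE greenhouse 3, the 3 smallest p for the difference between OE effects, and nearness to the limits. Lists by gene function could not be applied because the IDs were not paired with names here. Alternatives were other scalings, pseudocounts, limits and filters, limma-trend, quality weights, a replicate block, the compared libraries alone and libraries left out.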

Additional observations from a re-analysis of the deposited data

How the results depend on the processing

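The rule chose 292 genes with library totals as the scaling, which moved the all-gene median for OE in the greenhouse from -0.01 to 0.23 (log2), 82 with a limit of 5 CPM, 255 and 76 with greenhouse limits of 0.8 and 1.2, and 79 without OE greenhouse 3 and WT greenhouse 5 together (48 of them members). With single libraries left out it chose 85 to 266. With pseudocounts of 0.1 and 2 it chose 132 and 86, of which 104 and 52 were members. The 40 members called for OE in the greenhouse became 68 with library totals, 67 with quality weights and 20 with the replicate block. They became 11 without both libraries named above, 13 with greenhouse libraries alone, and 9 to 48 with single libraries left out. Over all genes the 1093 calls in either direction became 1575, 1835, 434, 323 and 316 in the same order, and 277 to 1171 with single libraries left out. The 4 called for sunlight in WT became 8 with library totals and 14 with quality weights (10 higher and 4 lower), and 0 to 9 with single libraries left out. Over all genes the 320 calls became 866 and 2286, and 35 to 1017 with single libraries left out. With 2286 of 22959 genes called, the 14 of 127 members are near the background. The 23 called for sunlight in OE became 55 with quality weights (53 lower and 2 higher) and 0 with the OE libraries alone. With single libraries left out they became 2 to 31. Over all genes the 1135 calls became 2481 and 47, and 116 to 1214 with single libraries left out. The compared libraries alone leave fewer samples for the spread; otherwise the cause was not tested. No member was called for OE in sunlight or for the difference between OE effects under any alternative run (0 to 0 with single libraries left out). Same-numbered WT and OE samples were not seen to deviate together: 0 of 6 correlations exceeded 0.1 and in 1 of 6 the own number gave the best match. Such correlations use deviations from means of 3 libraries, so they do not settle whether the numbers are a pairing. The main fit treated the libraries as unpaired. Of 1048 alternative values for single named genes, 957 kept direction and side of the threshold, 60 lost and 31 gained a call, and 0 reversed. Members near 2 CPM rest on few counts in the shallow libraries.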
